A study of Mus musculus with 36 samples.

Results

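The DNA replication machinery was followed as 48 named genes in cultured mouse nephron progenitor cells (NPCs), the mesenchymal progenitors of the embryonic kidney from which nephrons form. The genes were chosen by name. The Ensembl identifier of each symbol was looked up in 3 tables of normalized read counts from bulk RNA-seq, and 48 of 48 had a row in every table, out of 30125 genes in the tables together. All 48 also passed the filter on low values, a mean of at least 10 normalized counts, in every table. By role they are 15 licensing genes, 6 helicase activation genes, 9 primase and polymerase genes, 8 clamp, clamp loader and Okazaki fragment genes, 3 genes of single-strand binding, 3 of nucleotide supply and 4 of chromatin and histones.

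NPCs came from kidneys of E16.5 embryos of Swiss Webster or C57Bl/6 mice, were enriched by removing other cells with magnetic beads and were grown on Matrigel in nephron progenitor expansion medium. All groups were seeded in a low dose of CHIR99021 (CHIR), an inhibitor of GSK3 that stabilizes beta-catenin and so mimics a Wnt signal. Wild-type NPCs, neither transfected nor sorted, then spent a day in no CHIR, low CHIR (1.25 µM) or high CHIR (5 µM), with 3 libraries per dose. Beta-catenin (Ctnnb1) was removed in 2 ways, with 2 libraries per group and each also in low and high CHIR. Cre mRNA was given to NPCs homozygous for a conditional Ctnnb1 allele (B-catenin c/c) and compared with the same NPCs without Cre, and Ctnnb1 sgRNAs were given to NPCs that constitutively carry Cas9-eGFP and compared with a GFP sgRNA. In the third experiment Cas9-eGFP NPCs received sgRNAs to Tcf7l1, Tcf7l2, Tcf7 and Lef1 together, called QKO, or the GFP sgRNA, with 3 libraries per group except QKO in low CHIR, which had 2. Transfected cells also received mCherry mRNA and were sorted for it after a knockout period in low CHIR and a day at the final dose, so each library is a mixed edited population and not a clone. The knockout period was a day in the beta-catenin experiments and a day longer for QKO and its GFP sgRNA controls. The labels do not say whether replicates came from separate litters, so the p-values measure the spread between these libraries, which may be technical.

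Eukaryotic DNA replication is licensed in G1, when the origin recognition complex with Cdc6 and Cdt1 loads the Mcm2-7 helicase onto DNA, and geminin (Gmnn) blocks loading once S phase has begun. The helicase is switched on by Cdc45, the GINS proteins and Mcm10, after which DNA polymerase alpha with its primase starts each strand and polymerases epsilon and delta extend the leading and lagging strands. Many of these genes are known targets of E2F factors and are transcribed most in late G1 and S phase, so their level in a culture is widely used as a readout of cycling cells. In bulk libraries fewer cycling cells and less RNA per cell cannot be told apart.

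The promoters of the members were read first, because many of these genes are known targets of E2F factors. No link between a match and a change in level was tested. RefSeq promoters of GRCm38.p6, from 250 bases before to 50 bases after a start, matched 40 of 48 members and 49 starts. No entry matched Mcm4, Gins1, Gins2, Gins4, Gmnn, Prim2, Rfc2 or Pole. An E2F match, meaning any of TTTCCCGC and TTTGGCGC and TTTCGCGC and TTTGCCGC on either strand, lay in the promoters of 16 of 40 members (40%), against 2.60% of the 27025 genes with a promoter, 35.5% of 31 other replication genes and 5.56% of 18 mitotic genes. The 16 were Cdc6, Cdt1, Gins3, Lig1, Mcm3, Mcm5, Mcm6, Mcm7, Orc1, Orc3, Pola1, Pold1, Pold3, Pole2, Rfc3 and Uhrf1. The CHR element TTTGAA, a known site of late cell cycle genes, ran the other way, at 12.5% of members, 32.3% of other replication genes and 72.2% of mitotic genes, against 20.2% of all genes. A Tcf/Lef match, ATCAAAG or TTCAAAG on either strand, was found in 1 of 40 members (2.5%) and 9.88% of all genes. TTCAAAG always holds the CHR letters on the opposite strand. Each such match is therefore also a CHR match, and the Tcf/Lef and CHR shares are not separate results. The E-box CACGTG was found in 20% of members and 8.09% of all genes, and the NF-Y motif CCAAT in 65% and 41.1%. A match describes letters in a window and is not evidence that a factor binds there.

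**Figure D1:**
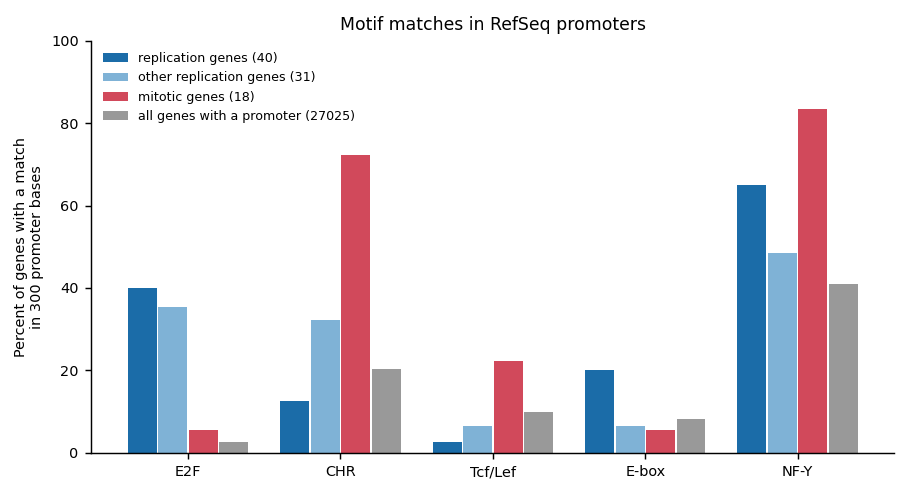
Percent of genes with at least 1 match to each motif in 300 promoter bases, for the members with a RefSeq promoter (40), other replication genes (31), mitotic genes (18) and all genes (27025). E2F matches stand at 40% of members against 2.60% of all genes, whereas the CHR element stands at 72.2% of mitotic genes against 12.5% of members.

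The 4 promoters below show where the E2F letters lie. They were printed because the match falls in the 200 bases before the start, outside any exon of the GENCODE vM21 annotation, and because the genes include members of licensing, of primer synthesis and of chromatin described later. Each runs 5′ to 3′ on the strand of its gene and ends at the base before the start, with the E2F match in capitals; in Mcm5 a match on each strand overlaps, and Mcm6 holds such an overlap and a further match nearer the start.
Mcm5 (chr8:75109309-75109508, plus strand): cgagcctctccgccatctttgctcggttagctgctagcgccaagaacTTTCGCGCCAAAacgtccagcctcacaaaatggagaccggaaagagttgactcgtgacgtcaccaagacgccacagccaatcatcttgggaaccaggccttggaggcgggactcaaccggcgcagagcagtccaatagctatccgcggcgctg
Mcm6 (chr1:128359706-128359905, minus strand): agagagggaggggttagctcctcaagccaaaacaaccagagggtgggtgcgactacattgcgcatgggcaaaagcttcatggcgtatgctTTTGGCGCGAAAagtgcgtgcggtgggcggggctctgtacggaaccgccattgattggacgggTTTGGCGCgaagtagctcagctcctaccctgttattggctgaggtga
Pola1 (chrX:93632156-93632355, minus strand): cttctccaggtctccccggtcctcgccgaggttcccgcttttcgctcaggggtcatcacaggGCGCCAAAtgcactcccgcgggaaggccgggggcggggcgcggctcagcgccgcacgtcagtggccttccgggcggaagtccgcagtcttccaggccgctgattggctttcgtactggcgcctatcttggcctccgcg
Uhrf1 (chr17:56304113-56304312, plus strand, the downstream of its starts): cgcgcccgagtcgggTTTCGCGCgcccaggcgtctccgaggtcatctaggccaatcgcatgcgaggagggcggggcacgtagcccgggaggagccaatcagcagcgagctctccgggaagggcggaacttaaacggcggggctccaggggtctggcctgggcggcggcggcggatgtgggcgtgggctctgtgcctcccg
The Mcm5 match begins 153 bases before the start, the Mcm6 matches 110, 106 and 47, the Pola1 match 138 and the Uhrf1 match 185. The matches of Orc1 and Rfc3 lay closer, 27 and 10 bases before it.

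The 36 libraries held 13089780 to 76071568 reads on genes (median 18990328), as recovered from the normalized counts. Six2, which marks the self-renewing NPC, read 2716 to 3545 in wild-type no and low CHIR and 60.5 to 79.6 in high CHIR. Markers of other cells were present in all groups. Summed stromal markers (7 genes) ran from 247 to 13041 normalized counts in the QKO table. In the Ctnnb1 table, endothelial markers (6 genes) summed to 776 to 1204 with Cre and 167 to 189 without in low CHIR, and blood markers rested on 4 of 7 listed genes. The third wild-type library in high CHIR stood apart from its replicates. Its Lhx1 read 104 against 5949 and 6706 in the other two, its Pax8 94.4 against 7800 and 7498, and its Wnt4 11108 against 1315 and 1473. The 20 mitotic genes lay below the mean of the other two in 20 of 20 cases, by a median of 2.06 on the log2 scale, and the 48 members in 40 of 48 (median difference -0.71). Without it the difference of 29 of the 48 members between high and low CHIR moved by over 1.5 times, in 26 of them toward 0 or past it, and the values of those described below are given both ways.

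In low CHIR wild-type NPCs, levels per kilobase of exon spanned from Pole to Rrm2. Rrm2, the S-phase subunit of ribonucleotide reductase, was highest, at 4225 ± 288 normalized counts per kilobase (mean ± SD, n = 3), followed by the sliding clamp Pcna at 2433 ± 145 and Uhrf1, which guides maintenance DNA methylation at the fork, at 2072 ± 91.5. Mcm6 (1500 ± 144), Mcm4 (1449 ± 153) and Pold2 (1440 ± 77.3) came next and lay within the SD of one another. The catalytic subunit Pole (43.5 ± 5.07) and the chromatin assembly subunit Chaf1a (44.5 ± 7.23) were lowest and overlapped. Chaf1a shares 4648 of its 8854 exon bases with Ubxn6 on the other strand. Reads there may not have been counted, so its level per kilobase may be too low. Orc1 stood at 104 ± 9.02 and Pola1 at 93.3 ± 11.2.

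Wild-type NPCs expressed most of the replication genes highest in low CHIR, and lower both without CHIR and in high CHIR. High CHIR against low lowered 14 of 48 members and raised none (limma, adjusted p under 0.05), where 10.6% of all 17411 genes tested were called, 5.18% lower and 5.39% higher. The fitted difference was below 0 for 46 members, with a median of -0.62 on the log2 scale against 0.01 over all genes, and in 31 members every high library lay below every low one, against 16% of all genes. No CHIR against low lowered 7 of 48 and raised none, where 5.04% of genes were called, 2.65% lower and 2.39% higher. Here 46 members were below 0, the median was -0.59, and 42 members had no overlap between the groups, against 16.8% of genes. The comparisons share the low CHIR libraries. Without the third high library, 13 members were lower in high CHIR (11 of them among the 14), and the median was -0.39. Below, a gene passes or falls by limma's test on all libraries unless another is named. edgeR called 13 members lower in high CHIR and 7 without CHIR. DESeq2 called 20 and 17, adding Cdt1, Mcm7, Prim1, Pole, Rfc5 and Chaf1a in high CHIR, and Cdc6, Cdt1, Mcm2, Mcm6, Mcm7, Mcm10, Prim2, Pold1, Pole and Pcna without CHIR. The count was 6, 6 and 5 without low replicate 1, 2 or 3, and 12 and 19 without high replicate 1 or 2. Markers of other cells moved with the doses as well. Here a marker counts as at 0 only if it read 0 in every library of a group, so single libraries can still hold 0. Endothelial markers (6 genes, none at 0) summed to 656 to 1415 in high CHIR against 61.1 to 180.4 in low, ureteric markers (6 genes, none at 0) to 2710 to 7775 against 656 to 1088, and stromal markers (7 genes, none at 0) to 3117 to 10403 against 9779 to 15598. Blood markers (5 genes, none at 0) summed to 220 to 352 in high CHIR against 698 to 850.3 in low. Without CHIR the endothelial sum was 214 to 383 and the blood sum 896 to 1250, both above low CHIR. Their part in the differences was not tested. The no CHIR count was less stable, at 11, 1 and 0 without no CHIR replicate 1, 2 or 3 and 1, 0 and 1 without low replicate 1, 2 or 3.

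**Figure D2:**
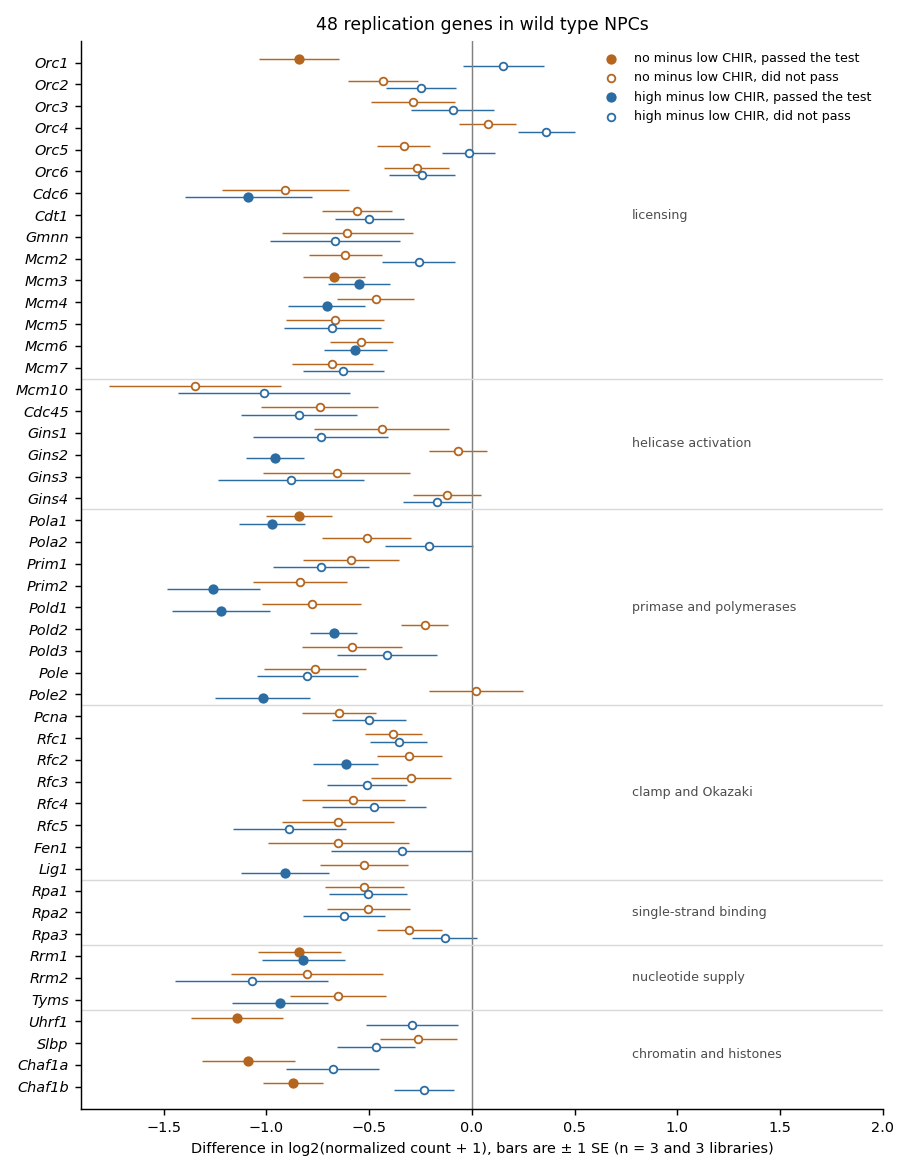
Fitted differences of the 48 members in wild-type NPCs on the log2(normalized count + 1) scale, no minus low CHIR in orange and high minus low in blue, with bars of ± 1 standard error (3 libraries per dose) and filled circles for members that passed the test. Nearly all lie left of 0 in both steps. Gins2, Pold2 and Pole2 carry a filled blue circle with an open orange one closer to 0, and Orc1, Uhrf1 and Chaf1b carry the reverse.

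Among the licensing genes, 4 of 15 fell in high CHIR and 2 of 15 in no CHIR. All of the Mcm2-7 helicase subunits had fitted values below 0 in both steps. Mcm6 read 5792, 3911 and 4903 normalized counts in no CHIR, 7009, 6325 and 7665 in low and 4668, 4432 and 5056 in high. Its low CHIR values lay above all others, and high CHIR lowered it by a log2 difference of -0.57 (SE 0.15, adjusted p = 0.0402). Mcm3 read 3771, 2519 and 2962 in no CHIR, 4472, 4998 and 5068 in low and 3100, 3435 and 3391 in high. It fell in both steps, by 0.67 without CHIR (adjusted p = 0.0354) and by 0.55 in high CHIR (0.0432). Mcm4 fell in high CHIR (-0.71, adjusted p = 0.0376), from 4821, 4949 and 5833 to 3371, 3138 and 3024, while its no CHIR values of 5039, 2850 and 3666 overlapped low CHIR. Mcm5 read 3407, 2160 and 2679 in no CHIR, 4042, 4404 and 4428 in low and 3262, 3261 and 1804 in high. Mcm2 read 3090, 1866 and 2427 in no CHIR, 3691, 3342 and 4082 in low and 2996, 2916 and 3360 in high. Mcm2, Mcm5 and Mcm7 did not pass (Mcm7 -0.68 without CHIR and -0.63 in high). In high CHIR Mcm5 went from -0.68 to -0.39, and Mcm7 to -0.38, without the third high library. The calls on Mcm3, Mcm4 and Mcm6 in high CHIR depended on single libraries. Without low replicate 3 their adjusted p was 0.159, 0.156 and 0.167, and Mcm3 and Mcm4 passed in none of 6 leave-outs and Mcm6 in 1.

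Of the loaders Cdc6 and Cdt1 and the inhibitor Gmnn, Cdc6 passed in high CHIR and none passed without CHIR. Cdc6, which loads the helicase with Cdt1, read 1044, 643 and 852 in no CHIR, 1560, 1357 and 1784 in low and 951, 976 and 422 in high, and fell by 1.09 in high CHIR (SE 0.31, adjusted p = 0.0499). The lowest of these values is that of the third high library, without which the difference was -0.69 (adjusted p = 0.0518), and without low replicate 3 the adjusted p was 0.177. Cdt1 read 1061, 699.6 and 920.5 in no CHIR, 1441, 1222 and 1243 in low and 933, 988 and 841 in high and did not pass (-0.56 and -0.50), although high and low did not overlap. Gmnn read 1167, 1317 and 1109 in no CHIR, 1732, 1924 and 1804 in low and 1340, 1837 and 611 in high, where 1 high library of 3 lay among the low ones and the third was far below. Its difference of -0.67 in high CHIR was -0.21 without that library. Of the origin recognition complex, Orc1, its cell cycle regulated subunit, fell without CHIR by 0.84 (SE 0.20, adjusted p = 0.0402; without low replicate 2, 0.141). Orc2 to Orc6 did not pass in either step, with fitted differences from -0.43 (Orc2 without CHIR) to 0.36 (Orc4 in high CHIR). Orc6 read 1753, 1843 and 1865 in no CHIR, 2135, 2087 and 2368 in low and 1924, 2279 and 1455 in high, with overlap between high and low (-0.24, and -0.07 without the third high library).

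Of the 6 genes that activate the helicase, Gins2 passed in high CHIR and none passed without CHIR, where DESeq2 called Mcm10 (-1.30, adjusted p = 0.0158). Mcm10, which helps the activated helicase to unwind DNA, read 646, 357 and 468 in no CHIR, 1085, 1222 and 1344 in low and 868, 935 and 267 in high. Its fitted differences were large (-1.35 without CHIR, SE 0.42, and -1.01 in high), and so was the spread, with adjusted p of 0.0934 and 0.165. The high CHIR difference of Mcm10 was -0.43 without the third high library. Cdc45, a core part of the active helicase, read 924, 881 and 769.7 in no CHIR, 1378, 1539 and 1380 in low and 985, 1128 and 457 in high. Low CHIR lay above every other library, and neither step passed (-0.74 and -0.84, the latter -0.44 without the third high library). Gins1, Gins3 and Gins4 ranged from -0.88 (Gins3 in high CHIR) to -0.12 (Gins4 without CHIR) and did not pass. Leaving out the third high library took Gins1 from -0.74 to -0.26 in high CHIR, Gins3 to -0.37 and Gins4 from -0.17 to 0.01.

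The primase and polymerase genes had 5 of 9 genes lower in high CHIR and 1 of 9 without CHIR. Prim2, the large primase subunit, read 1175, 1155 and 1101 in no CHIR, 2180, 1947 and 2001 in low and 1031, 1092 and 551 in high, and fell by 1.26 (SE 0.23, adjusted p = 0.00604). Without the third high library its difference was -0.94 and it still passed. Pola1, the catalytic subunit of polymerase alpha, read 526, 391 and 462 in no CHIR, 789.7, 744 and 933 in low and 410.1, 408 and 434 in high. It fell in high CHIR by 0.97 (SE 0.16, adjusted p = 0.00369) and without CHIR by 0.84 (SE 0.16, adjusted p = 0.0199). Pold1 and Pold2, the catalytic and accessory subunits of polymerase delta, fell in high CHIR by 1.22 and 0.67 (adjusted p = 0.00899 and 0.00429). Pold1 read 1513, 809 and 1349 in no CHIR, 1738, 2068 and 2325 in low and 1017, 924 and 700.1 in high, with the widest range in no CHIR. Pole, the catalytic subunit of polymerase epsilon, read 272, 247 and 343 in no CHIR, 481, 432 and 545 in low and 347, 325 and 189 in high and did not pass (-0.76 and -0.80). Prim1, the primase catalytic subunit, read 1276, 1199 and 1357 in no CHIR, 1593, 2216 and 1999 in low and 1253, 1566 and 779 in high and did not pass either (-0.59 and -0.74). The high CHIR differences of Pole and Prim1 were -0.52 and -0.45 without the third high library. Pola2 and Pold3 did not pass. Gins2, Pola1, Prim2, Pold1 and Pold2 were lower in high CHIR in 6 of 6 leave-outs and under 7 of 7 other settings, and Pole2 in 4 of 6 leave-outs (adjusted p = 0.0867 without low replicate 3).

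At the clamp and on the lagging strand, 2 of 8 genes fell in high CHIR and none without CHIR, where DESeq2 called Pcna (-0.64, adjusted p = 0.0281). Lig1, the ligase that joins Okazaki fragments, read 2292, 2068 and 1931 in no CHIR, 2729, 2971 and 3358 in low and 1719, 2144 and 1113 in high CHIR. Both other groups lay below low CHIR, and it fell by 0.91 in high CHIR (SE 0.21, adjusted p = 0.0218; without low replicate 3, 0.0996). Rfc2, a clamp loader subunit, fell by 0.61 (adjusted p = 0.0343; without low replicate 2, 0.104). Pcna read 3658, 3953 and 3562 in no CHIR, 5452, 6131 and 5933 in low and 4027, 5526 and 3152 in high, with 1 high library inside the low range, and did not pass (-0.65 and -0.50, the latter -0.31 without the third high library). Rfc1, Rfc3, Rfc4, Rfc5 and the flap nuclease Fen1 did not pass and ranged from -0.89 (Rfc5 in high CHIR) to -0.30 (Rfc3 without CHIR). DESeq2 called Rfc5 in high CHIR (adjusted p = 0.0399), and without the third high library Rfc5 was at -0.49 and passed (0.0222), while Rfc3 was at -0.28, Rfc4 at -0.13 and Fen1 at 0.01. None of the single-strand binding genes Rpa1, Rpa2 and Rpa3 passed. Rpa2 read 1757, 1721 and 1482 in no CHIR, 2158, 2461 and 2408 in low and 1724, 1908 and 1066 in high, and all 3 low CHIR libraries lay above the rest. Its high CHIR difference was -0.62, and -0.37 without the third high library.

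Of the 3 nucleotide supply genes 2 fell in high CHIR and 1 without CHIR. Tyms, thymidylate synthase, read 3108, 3085 and 3339 in no CHIR, 4920, 4976 and 5048 in low and 3441, 3155 and 1638 in high. It fell by 0.93 in high CHIR (SE 0.23, adjusted p = 0.0298), and by 0.60 without the third high library, which was lowest (adjusted p = 0.00488). Rrm1, the large subunit of ribonucleotide reductase, read 5205, 3762 and 4409 in no CHIR, 7238, 8118 and 8428 in low and 5009, 5586 and 3217 in high, and fell in both steps, by 0.84 (adjusted p = 0.0441) and 0.82 (0.0281). Its partner Rrm2 read 7487, 6204 and 6491 in no CHIR, 10786, 12177 and 12156 in low and 7400, 9045 and 2566 in high. The fitted differences of Rrm2 were of similar size (-0.80 and -1.07) but did not pass. Rrm2 was at -0.51 in high CHIR without the third high library, and then passed (adjusted p = 0.0375). Without low replicate 3 neither did Tyms (adjusted p = 0.104) or Rrm1 in high CHIR (0.112), and without no CHIR replicate 3 neither did Rrm1 in no CHIR (0.161).

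Of the 4 genes that follow the fork to rebuild chromatin or supply histones, 3 fell without CHIR and none passed in high CHIR, where DESeq2 called Chaf1a (-0.68, adjusted p = 0.0371). Uhrf1 read 4941, 3194 and 4046 in no CHIR, 8376, 9025 and 9073 in low and 8603, 8744 and 4977 in high. It fell without CHIR by 1.14 (SE 0.22, adjusted p = 0.0228), while high replicates 1 and 2 lay within the low range and replicate 3 near the no CHIR range. Chaf1b, the middle subunit of chromatin assembly factor 1, read 1195, 1004 and 1014 in no CHIR, 1842, 2057 and 1956 in low and 1660, 1946 and 1414 in high and fell by 0.87 without CHIR (SE 0.15, adjusted p = 0.0119). Chaf1a, the large subunit, fell by 1.09 (adjusted p = 0.0281), from 402, 327 and 454 to 230.4, 143 and 187. Slbp, which binds the stem-loop of histone mRNAs, read 4249, 3848 and 3767 in no CHIR, 4763, 4599 and 4825 in low and 3881, 4257 and 2423 in high and did not pass. Without the third high library the high CHIR differences were -0.02 for Uhrf1 (-0.29 with it), -0.12 for Chaf1b (-0.23) and -0.22 for Slbp (-0.47). Without no CHIR replicate 3, the adjusted p of Uhrf1, Chaf1a and Chaf1b was 0.105, 0.119 and 0.077. Of the 7 members called in no CHIR, Chaf1b passed in 4 of 6 leave-outs and the other 6 in 1 each.

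High CHIR set directly against no CHIR gave calls in both directions. Of the 48 members 6 differed, where 24.6% of all genes did, and the member median was -0.02, with 25 below 0 and 23 above. The groups did not overlap in 4 members that were lower (20.9% of all genes) and 5 that were higher (19% of all genes). Gins2, Pole2 and Pold2 were lower in high CHIR, whereas Orc1, Uhrf1 and Chaf1b were higher. Gins2 (ENSMUSG00000031821, chr8:120578633-120589304 of GRCm38 in GENCODE vM21, minus strand), a GINS subunit of the active helicase, read 1309, 1330 and 1352 in no CHIR, 1246, 1484 and 1472 in low and 792, 762 and 613 in high. No and low CHIR overlapped and high lay below both, by 0.89 against no CHIR (SE 0.14, adjusted p = 0.00151) and by 0.96 against low (SE 0.14, adjusted p = 0.00197). Pole2 (ENSMUSG00000020974, chr12:69201773-69228195, minus strand), an accessory subunit of polymerase epsilon, read 358, 420.1 and 407 in no CHIR, 384, 358 and 428 in low and 236, 225 and 132 in high (-1.04 against no CHIR, adjusted p = 0.00888, and -1.02 against low, 0.0183). Pold2 (ENSMUSG00000020471, chr11:5872180-5878292, minus strand) read 2518, 2166 and 2307 in no CHIR, 2736, 2874 and 2581 in low and 1746, 1623 and 1768 in high, and was lower by 0.44 against no CHIR (adjusted p = 0.0179; 0.0636 without no CHIR replicate 3).

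The reverse order was seen in Orc1 (ENSMUSG00000028587, chr4:108579423-108614833, plus strand), which read 235, 155 and 221 in no CHIR, 361, 392 and 329 in low and 419, 427 and 359 in high. High and low CHIR overlapped and no CHIR lay below both, so that high exceeded no CHIR by 0.99 (SE 0.20, adjusted p = 0.00501). Uhrf1 (ENSMUSG00000001228, chr17:56303321-56323486, plus strand) exceeded no CHIR by 0.85 (adjusted p = 0.0201; 0.0725 without no CHIR replicate 2) and Chaf1b (ENSMUSG00000022945, chr16:93883901-93906115, plus strand) by 0.64 (0.0105). Orc1, Gins2, Pole2 and Chaf1b passed in 6 of 6 leave-outs. Without the third high library 10 members differed, 3 lower and 7 higher, the added ones being Mcm10, Pola2, Pold3 and Rfc4, and the member median turned to 0.21 with 38 of 48 above 0.

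**Figure D3:**
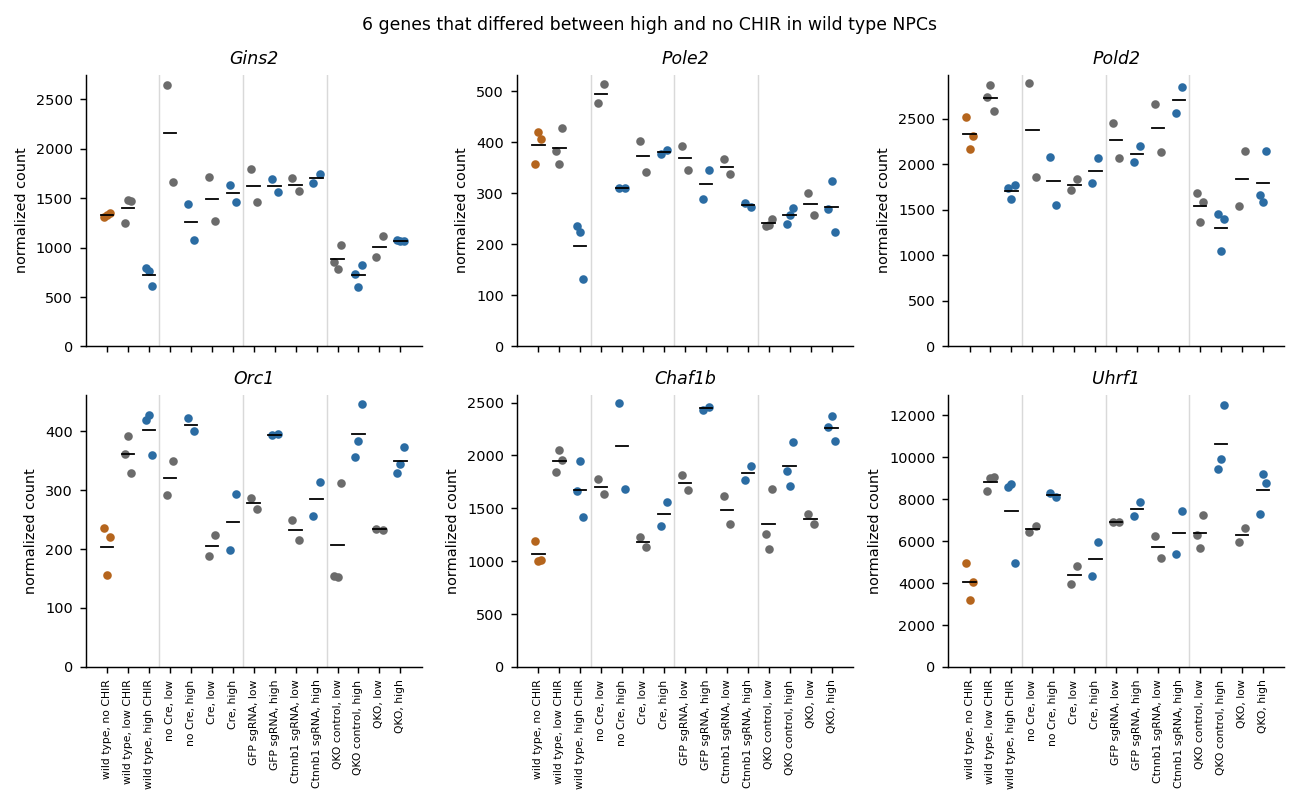
Normalized counts per library of Gins2, Pole2, Pold2, Orc1, Chaf1b and Uhrf1 in the groups of the 3 tables, each point 1 library and each bar the group mean. In wild-type cells Gins2, Pole2 and Pold2 are lowest in high CHIR, and Orc1, Chaf1b and Uhrf1 are lowest without CHIR, with the third high library of Uhrf1 at 4977. Levels are comparable within a table, since the tables were normalized separately.

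The rest of the replication programme was taken from a separate list of 38 genes, of which 37 could be tested. In high against low CHIR 6 of them fell and none rose. Dut, which clears dUTP, had the smallest p (-1.52, SE 0.14, adjusted p = 0.000127). The others were Tk1, thymidine kinase (-1.23), the repressor E2f8 (-1.48), the fork protection partners Tipin (-0.72) and Timeless (-0.79) and the histone chaperone Asf1b (-1.21). In no against low CHIR 5 fell and 1 rose. The origin firing genes Dbf4 (-1.44, adjusted p = 0.0117), Cdc7 (-0.98, 0.0346) and Mtbp (-1.19, 0.00924) fell, as did Dna2 and the maintenance methyltransferase Dnmt1, while Pold4, the smallest delta subunit, rose (1.02, 0.0442). Directly between high and no CHIR, Dut (-1.28), Pold4 (-1.58) and Rnaseh2b were lower in high, and Dbf4 (1.00), Mtbp (0.86), E2f2 (1.14), Dna2 and Dck were higher.

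The 20 mitotic genes, which act after S phase, had medians of -0.98 in high CHIR and -0.79 without, and 20 of 20 were below 0 in both steps. None passed limma's test in either, with 12 and 4 at an unadjusted p under 0.05, and edgeR called 0 in both and DESeq2 1 and 2. Without the third high library the median in high CHIR was -0.33, with 19 of 20 below 0 and 2 genes called. The medians of the mitotic genes in the 3 high libraries, against the mean of low CHIR, were -0.31, -0.31 and -2.30.

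The high against low CHIR step was measured again in the controls of the removal experiments, which had been transfected and sorted, and there the member median was not below 0. It was 0.02 in the B-catenin c/c NPCs without Cre (22 of 48 below 0, and -0.01 after TMM rescaling). It was 0.11 with GFP sgRNA in the Ctnnb1 table (17 below 0) and 0.26 in the QKO controls (10 below 0). In wild-type NPCs the median was -0.62, and -0.39 without the third high library. The tables were normalized separately and the difference between them was not tested. The controls also differed from the wild-type cells in genotype, in transfection, in a knockout period in low CHIR and in the sort, and these cannot be told apart here. That period was a day longer in the QKO controls than in the other controls. In the QKO controls summed endothelial markers ran from 157 to 239 in high CHIR against 46.7 to 78.3 in low, and their part was not tested.

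**Figure D4:**
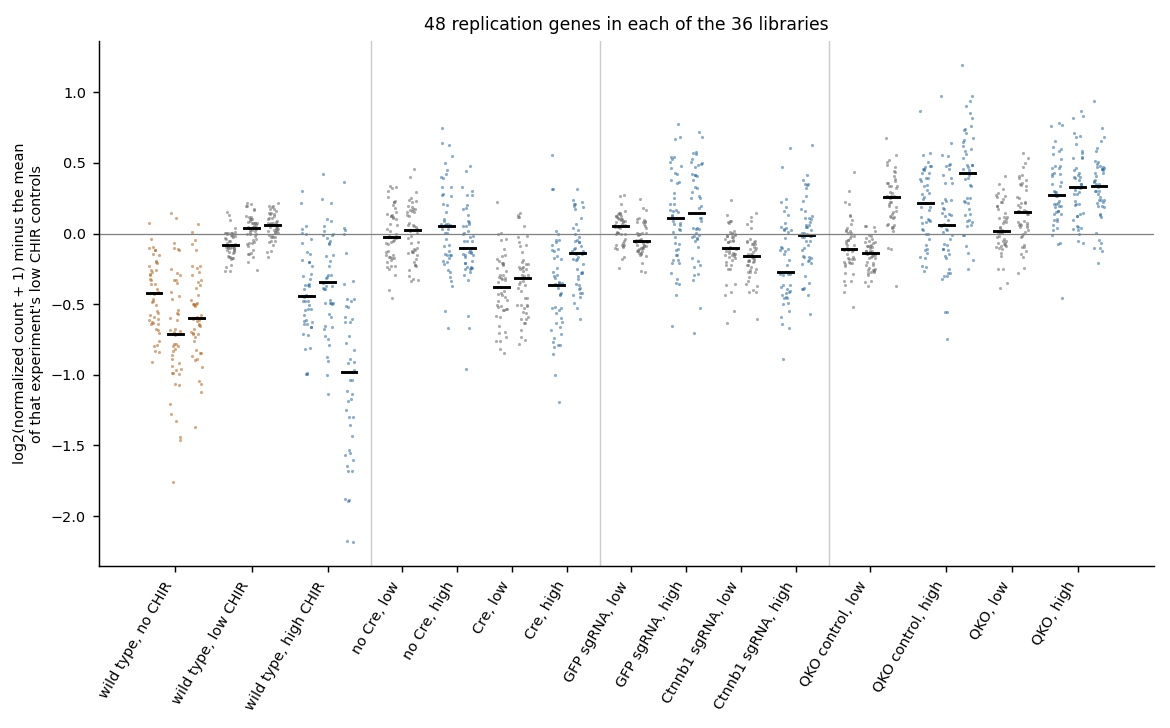
Each point is 1 of the 48 members in 1 of the 36 libraries, as log2(normalized count + 1) minus the mean of the low CHIR control libraries of that experiment, and each black bar is the median of the members in that library. Wild-type libraries without CHIR have medians of -0.42, -0.71 and -0.60 and those in high CHIR -0.44, -0.35 and -0.98, the lowest being the third library; the QKO control libraries in high CHIR have 0.22, 0.06 and 0.43.

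Without Cre, Pole2 was again lower in high CHIR, by 0.67 (SE 0.18, adjusted p = 0.0361), and it was the 1 member called, where 8.06% of all genes were (5.25% lower and 2.81% higher). It read 476 and 514 in low and 311 and 310.2 in high CHIR. Without any 1 of the 4 libraries it stayed between -0.72 and -0.62 and its adjusted p rose to at most 0.141, so that it passed in none of the 4 leave-outs, whereas Gins2 passed without low replicate 2 (-1.09, adjusted p = 0.0121). Gins2 read 2650 and 1668 in low and 1437 and 1082 in high, with a difference of -0.75 that did not pass (adjusted p = 0.0595). With GFP sgRNA no member passed limma's test, where 7.51% of all genes did (4.53% lower and 2.98% higher), with 13 members at an unadjusted p under 0.05 (2 lower and 11 higher), and edgeR and DESeq2 called 0. The groups did not overlap in 23 members that were higher and 8 that were lower there, against 29.3% and 28.5% of all genes. Gins2 read 1794 and 1460 in low and 1693 and 1563 in high there.

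In the QKO controls 4 members rose in high CHIR and none fell, where 15.6% of all genes were called, 8.26% lower and 7.36% higher. Uhrf1 read 6296, 5654 and 7236 in low and 9464, 9936 and 12506 in high, a rise of 0.73 (SE 0.14, adjusted p = 0.00478) that passed in 6 of 6 leave-outs. Orc1 read 154, 153 and 311 in low and 356, 383 and 447 in high and rose by 1.01 (SE 0.25, adjusted p = 0.0154). Chaf1b read 1258, 1117 and 1681 in low and 1857, 1707 and 2125 in high (0.50, adjusted p = 0.0442). Pcna read 3928, 3782 and 3921 in low and 4794, 5669 and 5287 in high (0.43, 0.0114). In all 4 genes the groups did not overlap, which held in this direction for 14.1% of all genes. Low replicate 3 of these controls lay above the other low libraries, by a member median of 0.26 against the mean of the group, and without it 19 members were higher. Without low replicate 2, the adjusted p of Orc1, Pcna and Chaf1b was 0.075, 0.0521 and 0.185, leaving 1 member, and the count was 2 without low replicate 1 or high replicate 3. Samples with the same replicate number varied together in this table, and with the replicate number as a block 13 members were higher. The blood marker Lyz2 was also high in high replicate 1 (2474 against at most 16 in the other libraries of the table); without it 3 members were higher. In the wider list E2f7 (0.99), Nasp (0.64) and Dna2 (0.70) were among the genes that rose, and Pold4 (-0.90) and Dut (-0.43) fell.

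The removal of beta-catenin was checked first on Ctnnb1 itself. With Ctnnb1 sgRNAs it read 1630 and 1270 against 2632 and 2701 in high CHIR (-0.89, adjusted p = 0.0429) and 1652 and 1040 against 2521 and 3397 in low (-1.16, 0.252). With Cre it read 3085 and 2451 against 3880 and 3097 in low CHIR and 2254 and 2583 against 2423 and 2207 in high, so the gene level does not check the label there, since reads outside the deleted exons can still count. Wnt4, a Wnt target of the differentiating nephron, did separate the groups, at 479 and 720.0 with Cre against 5798 and 5030 without in high CHIR.

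After Cre in low CHIR, 47 of 48 members had a lower fitted value, with a median of -0.35 on the log2 scale, but none passed limma's test, where 0.328% of all genes did. At an unadjusted p under 0.05, 18 were lower and none higher, edgeR called 0 and DESeq2 1 (Cdc45), and in 30 members both Cre libraries lay below both controls, against 18.2% of all genes. With the replicate number as a block 4 members were lower. Cdc45 had the smallest p in the main fit. It read 1326 and 1290 without Cre and 773 and 812 with Cre, a difference of -0.72 (SE 0.15, adjusted p = 0.0739), and Rfc5 passed without no-Cre replicate 2 (-0.87). Orc1 read 291 and 349 without Cre and 187 and 224 with Cre (-0.63). Uhrf1 read 6456 and 6727 without Cre and 3971 and 4794 with Cre (-0.59). Gmnn (-0.61), Mcm7 (-0.65), Mcm10 (-0.66), Rfc5 (-0.65) and Rpa2 (-0.63) were of like size, while Orc3 (0.10), Cdt1 (-0.03) and Pola2 (-0.06) were near 0. The mitotic genes had a median of -0.61, with 20 of 20 below 0, and Aurka fell (-0.84, limma, adjusted p = 0.0405). edgeR called 0 mitotic genes there and DESeq2 5. The endothelial and stromal marker sums were higher with Cre, for stroma 9875 to 14587 against 4022 to 9241. None of the 7 stromal genes was at 0 in every library of a group. The ureteric sum was higher too (270.1 to 278 against 208 to 224). The part of these markers in the difference was not tested.

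In high CHIR Cre lowered 2 of 48 members, where 8.65% of all genes were called, 2.75% lower and 5.9% higher. Prim2 read 2832 and 2268 without Cre and 1692 and 1677 with Cre (-0.59, SE 0.15, adjusted p = 0.0263). Uhrf1 read 8290 and 8102 without Cre and 4349 and 5951 with Cre (-0.69, SE 0.20, adjusted p = 0.0442). The Cre libraries lay below the controls in both genes. Blocked on the replicate number, 10 members were lower. The median was -0.25 and 38 of 48 were below 0. By edgeR and DESeq2, which were run without Cre replicate 1, the median was -0.14 and -0.13. Limma without that library gave -0.13. The Cre libraries lay below both controls in 22 members, against 23.1% of all genes. Both calls depended on single libraries. Without no-Cre replicate 1 or Cre replicate 1 the count was 0, without no-Cre replicate 2 it was 3 and without Cre replicate 2 it was 6, and edgeR and DESeq2 called 0. Gins2 and Pole2 lay on the other side, higher with Cre without overlap (as were 24.2% of all genes), at 1638 and 1460 against 1437 and 1082 for Gins2 (0.31) and 378 and 385 against 311 and 310.2 for Pole2 (0.29), and did not pass. No member passed the test of whether the effect of Cre differed between low and high CHIR, where 0.995% of all genes did, 0.25% lower and 0.745% higher (2 members at an unadjusted p under 0.05, both higher, and 0 by edgeR and DESeq2). Of the mitotic genes 5 fell with Cre in high CHIR, Aurka, Bub1b, Tpx2, Ndc80 and Ttk, by limma, and edgeR and DESeq2 each called 1. In high CHIR endothelial markers summed to 572 to 941 with Cre against 65.4 to 85.1 without. Without Cre 2 of the 6 were at 0 in every library. Stromal markers summed to 6335 to 11716 with Cre against 3526 to 4815 and ureteric markers to 290.2 to 307 against 359.9 to 522. The part of these markers was not tested.

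With Ctnnb1 sgRNAs the member median in low CHIR was -0.14, with 43 of 48 below 0. None passed limma's test, where 0.0536% of all genes did (0.0179% lower and 0.0358% higher), with 0 at an unadjusted p under 0.05 and 0 by edgeR and DESeq2. The groups did not overlap in 19 members that were lower, against 14% of all genes. In high CHIR 2 of 48 fell, where 5.09% of all genes were called, 1.64% lower and 3.44% higher. The median was -0.20, and 27 members were lower without overlap, against 31.2% of all genes. Blocked on the replicate number, 10 members were lower. Orc4 read 1597 and 1547 with GFP sgRNA and 889 and 878 with Ctnnb1 sgRNAs (-0.83, SE 0.21, adjusted p = 0.038). Rrm2 read 13442 and 14729 with GFP sgRNA and 7883 and 9054 with Ctnnb1 sgRNAs (-0.74, SE 0.20, adjusted p = 0.0489). Neither passed when any of the 4 libraries was left out (adjusted p up to 0.224 for Orc4 without Ctnnb1 sgRNA replicate 2 and 0.309 for Rrm2 without GFP replicate 2). Gmnn (-0.77), Gins1 (-0.72), Rfc4 (-0.66) and Rpa3 (-0.64) were of like size, and Pold2 was the 1 member higher in both libraries (0.36), as were 30.1% of all genes. No member passed the test of whether the effect of Ctnnb1 sgRNAs differed between doses, where 0.518% of all genes did (0.0477% lower and 0.471% higher; 3 members at an unadjusted p under 0.05, all lower, and 0 by edgeR and DESeq2). Of the wider list Pclaf, a Pcna partner, fell (-0.92, adjusted p = 0.0303). The difference between Cre and Cas9 was itself tested and no member passed in low or high CHIR, where 0% of all genes did; 2 members had an unadjusted p under 0.05 in low CHIR and 0 in high, and edgeR and DESeq2 called 0. The endothelial markers moved with this removal too. They summed to 523 to 743 with Ctnnb1 sgRNAs and 103 to 158 with GFP sgRNA in low CHIR. In high CHIR the sums were 628 to 1065 and 75.6 to 163. No marker was at 0 in every library of a group, and the part of these markers was not tested.

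**Figure D5:**
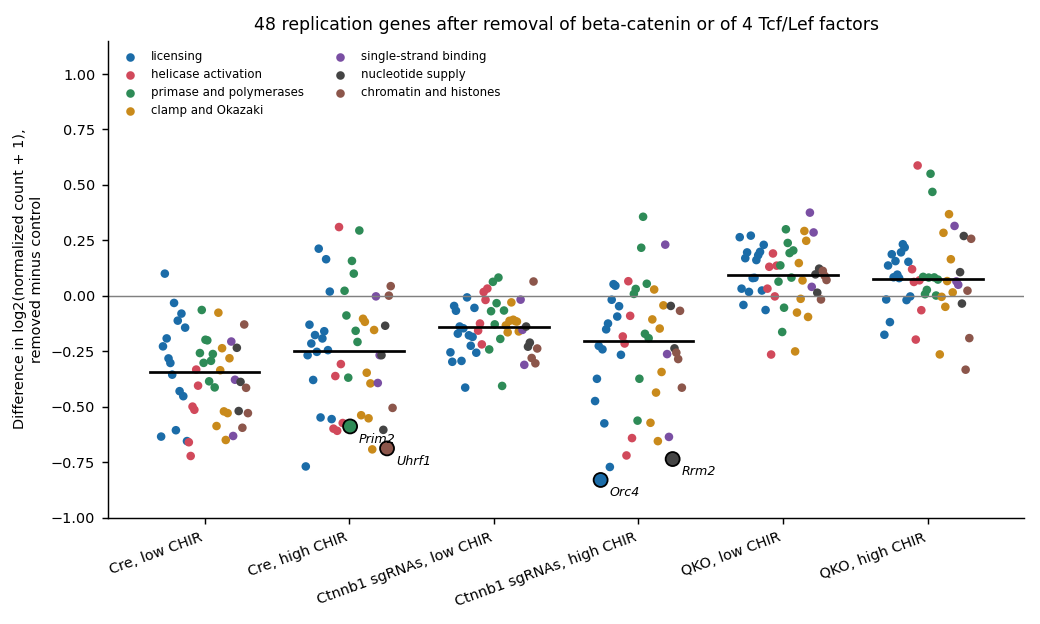
Differences of the 48 members after removal, on the log2(normalized count + 1) scale, for Cre and Ctnnb1 sgRNAs (2 libraries per group) and QKO (3 per group, 2 for QKO in low CHIR); points are genes coloured by role, bars their median, and outlined points passed the test. Medians run from -0.35 (Cre in low CHIR) through -0.14 (Ctnnb1 sgRNAs in low CHIR) to 0.09 and 0.08 (QKO), and Prim2, Uhrf1, Orc4 and Rrm2 are the outlined genes.

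In QKO cells no member differed from the controls by the test. Among the targets, Tcf7 read 109.5, 179.7 and 127 against 534, 535 and 268 in high CHIR (-1.64, adjusted p = 0.0175), while Lef1 (-2.12), Tcf7l1 (0.15) and Tcf7l2 (-0.35) did not pass; sgRNAs need not lower the RNA. In low CHIR the members had a median of 0.09, with 37 of 48 above 0, and in high CHIR 0.08, with 35 above 0. None passed limma's test in either, where 0.0063% and 2.56% of all genes did; 1 member in low and 6 in high CHIR (2 lower and 4 higher) had an unadjusted p under 0.05, and edgeR and DESeq2 called 0. Gins2 had the largest difference in high CHIR. It read 731, 598 and 827 in the controls and 1079, 1067 and 1067 in QKO, above every control (0.59, SE 0.16, adjusted p = 0.079), and with the replicate number as a block it was called (adjusted p = 0.0147); without control replicate 3 in high CHIR it was called too (0.70, adjusted p = 0.0463). Pold1 (0.55) and Pold2 (0.47) also had higher fitted values, and Uhrf1 (-0.33) and Pcna (-0.26) lower ones, without passing. No member passed the test of whether the QKO difference changed with CHIR, where 0.126% of all genes did (0 at an unadjusted p under 0.05, 0 by edgeR and DESeq2).

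Some members share exon sequence with a gene on the other strand, and the counting strand is not given in the sources used here. Only unambiguous reads were counted. If strand was not used, reads in shared bases may have been dropped, and the counts of these members may be too low. This was not tested. Gse1 covers 2758 of 4097 exon bases of Gins2 (mean of 148 normalized counts for Gse1 in wild-type cells), Ubxn6 4648 of 8854 of Chaf1a (286), Gm10143 1909 of 2422 of Fen1 (55.6) and Nif3l1 1150 of 3857 of Orc2 (1391). Overlaps in Orc1, Orc4, Orc6, Mcm7, Cdc45, Pole, Rfc2, Rfc4, Rfc5, Lig1 and Slbp were shorter. Some of the genes in short overlaps had high counts in wild-type cells. Eif4a2 covers 194 of 1533 exon bases of Rfc4 (mean 6185) and Cops6 64 of 4426 of Mcm7 (6372). Vps35 covers 171 of 2469 of Orc6 (3831) and Tmem258 130 of 2422 of Fen1 (2791).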

How the data were processed

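The deposited values are normalized read counts per gene (a signal), made by the authors, and are not raw counts. Per the study's methods, libraries from a low-input SMARTer kit were sequenced paired-end, aligned with STAR to a combined mouse and human Ensembl genome (GRCm38 and GRCh38), counted with featureCounts from reads with a single, unambiguous place and divided by DESeq2 size factors. The counting strand is not given in the sources used here. The 3 tables hold 25760 (wild type), 26863 (Ctnnb1) and 26472 (Tcf/Lef) genes and were normalized separately, so tests stayed within a table. Another 8 tables hold 50 per-sample columns beside the authors' fold changes and p-values and were not used.

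Groups came from the sample labels. Genes with a mean of at least 10 were tested (17411, 16780 and 15878) on log2(normalized count + 1) with limma 3.58.1 in R 4.3.3, with a trend in the variance, all libraries of a table in a single fit and Benjamini-Hochberg adjustment over all genes tested. A gene was called at an adjusted p under 0.05, with no fold cut-off. A log2 difference on this scale understates the change of low genes. The fit was tested on simulated data first. The members, the other lists and the rule for named genes were chosen with earlier results of these data known. By that rule every member is accounted for by role, 22 set members and the smallest p or called extremes of a comparison are given by library, and of other replication genes those called or of smallest p are named, except for a result that is not reported here.

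In all 36 libraries 100% of values are whole multiples of 1 read (tolerance 0.01 read), and the recovered reads gave the depth, 13089780 to 76071568 per library. edgeR 4.0.16 and DESeq2 1.42.0 were run on these reads as alternatives, leaving out 3 libraries whose size factors are close to 1 (0.994 to 1.01 normalized counts per read), so that their steps could not be told from whole numbers as surely as in the other 33 (GFP sgRNA in low CHIR replicate 1 of the Ctnnb1 table, Cre in high CHIR replicate 1 and GFP sgRNA in high CHIR replicate 2 of the Tcf/Lef table). GFP sgRNA in low CHIR and Cre in high CHIR of the Ctnnb1 table then had 1 library each in the count tests. The edgeR and DESeq2 results on these groups thus differ from the main fit by that left-out library as well. Other alternatives were a pseudocount of 0.5, no filter, TMM rescaling, a log2 fold cut-off of 0.5, the replicate number as a block, a fit on the compared libraries alone and leaving out each library. Where that left a group with 1 library, it was assumed to vary like the other groups.

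No 2 of 27 replicate pairs compared held identical values, and their counts differed by more than sampling noise (chi-square per degree of freedom 12.95 to 161). Same-numbered libraries varied together in the Tcf/Lef table, by the correlation of their deviations from the group means. It was 0.341 to 0.63 between control doses and 0.249 to 0.369 between QKO and control in high CHIR. Blocked values therefore stand beside the results they change there. Correlations in the Ctnnb1 table (0.196 to 0.491) came from only 2 numbered pairs each. Blocked counts stand beside the removal results they change there too. Gene positions are those of GENCODE vM21 on GRCm38, and promoter sequences those of RefSeq for GRCm38.p6. Level per kilobase is the normalized count divided by the length of the merged exons.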

Additional observations from a re-analysis of the deposited data

Results flagged for a closer look

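Some members moved in opposite directions with high CHIR in wild-type NPCs and in transfected controls, every high library lying below every low one in the former and above in the latter. The tables were normalized separately and the difference was not tested. Each share below is for a single comparison. The share of all genes with both directions at once was not computed, so the member counts cannot be judged against it. For scale, groups without overlap occurred by direction in 16% of all genes (lower, wild type), 22.2% (higher, without Cre), 29.3% (higher, GFP sgRNA in the Ctnnb1 table) and 14.1% (higher, QKO controls), the Ctnnb1 table having 2 libraries per group.

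Against the B-catenin c/c NPCs without Cre, Mcm10 had a log2 difference of -1.01 in wild-type cells and 0.47 without Cre, and Prim2 -1.26 and 0.29. Against the GFP sgRNA cells of the Ctnnb1 table there were 11 such members. Among licensing and helicase activation genes, Cdt1 had -0.50 in wild-type cells and 0.55 with GFP sgRNA, Mcm10 0.29 with GFP sgRNA, Cdc45 -0.84 and 0.31, Gins1 -0.74 and 0.34, and Gins3 -0.88 and 0.33. Of the primase, Prim1 had -0.74 and 0.62, and Prim2 0.42 with GFP sgRNA. Of the clamp loader, Rfc3 had -0.51 and 0.30, and Rfc5 -0.89 and 0.21. Rrm2 had -1.07 and 0.43, and Chaf1a -0.68 and 0.69. Against the QKO controls, Gins1 had 0.39 and Rfc3 0.27 in the controls. The third wild-type high CHIR library, which stood apart from its replicates, enters the wild-type values. Without it they were -0.43 for Mcm10, -0.94 for Prim2, -0.43 for Cdt1, -0.44 for Cdc45, -0.26 for Gins1, -0.37 for Gins3, -0.45 for Prim1, -0.28 for Rfc3, -0.49 for Rfc5, -0.51 for Rrm2 and -0.56 for Chaf1a. Of all these differences with every library in, only that of Prim2 in wild-type cells passed limma's test.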

How the results depend on the processing

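In the wild-type table the step from low to high CHIR called 14 members, 8 when only the libraries compared were fitted, 5 to 19 with 1 library left out, and 12 to 20 under the other alternatives. No against low CHIR called 7, with 17 by DESeq2, 25 when only the libraries compared were fitted and 0 to 11 with 1 library left out. High against no CHIR called 6, with 4 to 10. There the member median of -0.02 ran from -0.12 to 0.21 with 1 library left out, being 0.02 without no CHIR replicate 1 and 0.21 without high replicate 3. No alternative called a member higher in the comparisons with low CHIR.

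Cre in low CHIR called 0, 1 by DESeq2 and 0 to 1 with 1 library left out. Cre in high CHIR called 2, 1 without the filter, 0 by edgeR, DESeq2 or on the libraries compared alone, and 0 to 6 with 1 left out. Ctnnb1 sgRNAs in high CHIR called 2, 0 without the filter, 1 after TMM rescaling, 7 by DESeq2, 10 on the libraries compared alone and 0 with any library left out. The CHIR step without Cre called 1, 0 without the filter, by edgeR or on the libraries compared alone, 2 after TMM rescaling or by DESeq2, and 0 to 1 with 1 left out. Its median of 0.02 was -0.0085 after TMM rescaling and -0.10 to 0.056 with 1 left out. The CHIR step with GFP sgRNA called 0, and 4 on the libraries compared alone (Mcm4 lower; Orc6, Prim1 and Rfc4 higher). The CHIR step in the QKO controls called 4, 1 by edgeR or on the libraries compared alone, 7 by DESeq2 and 1 to 19 with 1 left out, and QKO in high CHIR 0 to 1. The cause of these changes was not tested.

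In the wild-type table same-numbered libraries did not vary together throughout (correlations -0.0156 to 0.272), and with the replicate number as a block the counts were 12, 8 and 6 for high against low, no against low and high against no CHIR. In the Ctnnb1 table each comparison had only 2 numbered pairs (0.196 to 0.491), and the block gave 4 members for Cre in low CHIR, 10 for Cre and 10 for Ctnnb1 sgRNAs in high CHIR, 2 for the CHIR step without Cre, 6 with GFP sgRNA (1 lower and 5 higher) and 1 (Gins2) for the change of the Cre effect with CHIR. In the Tcf/Lef table same-numbered libraries varied together (0.249 to 0.63), although the labels state no pairing. The block there gave 13 in the controls and 1 (Gins2) for QKO in high CHIR, and changed no other count. The part of depth and of group size in these counts was not tested.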

Other observations

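Outside the members, a few cell cycle genes had calls of their own in the transfected cells. In the B-catenin c/c NPCs without Cre, high CHIR lowered Mki67, a marker of cycling cells, by 0.80 on the log2 scale (limma, adjusted p = 0.0171), and of the wider replication list Tk1 (-0.94), the chaperone Asf1b (-0.81) and the repressor E2f8 (-0.74). Mki67 was lower in high CHIR in the QKO controls as well (-0.83, adjusted p = 0.0381), where the called members were higher. It was the 1 mitotic gene of 20 called in each of these comparisons, and the median of the 20 was -0.09 without Cre and -0.08 in the QKO controls. With GFP sgRNA in the Ctnnb1 table E2f8 fell (-0.71), whereas Dbf4, the activator of the origin kinase Cdc7, rose (0.89). In QKO cells in high CHIR none of the 37 genes of the wider list passed (0 by edgeR and DESeq2; 3 at an unadjusted p under 0.05), and those of smallest p were Tk1 (0.56, adjusted p = 0.0578) and Dut (0.48, adjusted p = 0.0725), both with higher fitted values.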
